A study of Glycine max with 11 samples.

Results

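A set of 150 soybean genes had its highest transcript levels in freshly harvested seeds of stages 7.2 and 7.3, out of 56044 genes counted. A gene was eligible with a CPM (its counts divided by the library's total and scaled to 1000000) of at least 10 in each of the 3 libraries of these stages, which left 9515 genes. Eligible genes were then ranked by a score, the lowest log2(CPM + 1) of these 3 libraries minus the highest log2(CPM + 1) of the 6 fresh libraries of the other stages, and the first 150 were kept. The score ran from 2.62 for the first gene to 0.94 for the last, with a median of 1.16, and 1465 eligible genes scored above 0. At the limit, the last genes inside the list, Glyma.05G076800 and Glyma.17G092800, scored 0.940, and the first genes outside it, Glyma.04G003500 and Glyma.15G105500, scored 0.936 and 0.933, so the list ends inside a continuous range. The genes were thus chosen by their CPM in all 9 fresh libraries, and the shape of their profile during maturation is a description and is given without a test.

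The libraries came from RNA of whole seeds of the field-grown cultivar BRS284, pooled over many plants of 1 crop year. Fresh seeds were frozen at harvest at stages 7.1, 7.2, 7.3, 8.1, 8.2, 8.3 and 9, with 2 libraries for stages 7.2 and 9 and 1 library for each of the other stages. Seeds dried quickly after harvest at stage 7.2, in warm air of controlled humidity, gave 2 further libraries that played no part in choosing the genes. The study asked which transcripts accompany the gain of storage life in late maturation, and the dried seeds were its comparison for immature seeds brought to the dry state.

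Late in maturation a legume seed stops importing reserves, separates from the mother plant, loses chlorophyll and becomes able to survive drying before the water is lost in the field. Abscisic acid and the transcription factors that act with it, among them ABI3 in Arabidopsis, switch on protective proteins such as late embryogenesis abundant (LEA) proteins and small heat shock proteins in this period. Stages 7.2 and 7.3 lie between the end of filling and the onset of drying on the plant.

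Library totals ranged from 12881662 to 60626937 counts, and both extremes were dried seeds. The deeper of the dried libraries, replicate 2, stood apart from the rest, with a TMM scaling factor of 0.675 against 0.941 to 1.201 in the other 10 libraries. Over the eligible genes its median log2 difference from fresh seeds of stage 7.2 was -0.48 in CPM and 0.19 after TMM scaling, so levels are printed below as normalised CPM, that is CPM divided by the TMM factor. A total of 10 seed proteins (oleosins, steroleosin, lectins and Kunitz inhibitors by name) had counts in every library, and their summed level went from 22550 normalised CPM at stage 7.1 to 467 at stage 8.2 and was 1699 and 4941 in dried replicates 1 and 2. In RNA of whole seeds, fewer cells of a kind and less transcript per cell cannot be told apart.

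The 150 genes peaked at stages 7.2 and 7.3 by the rule that chose them. Their median level was 6.95 normalised CPM at stage 7.1, 47.7 and 55.9 in replicates 1 and 2 of stage 7.2, and 41.0 at stage 7.3. It was 12.5 at stage 8.1, 5.32 at 8.2, 9.14 at 8.3, and 7.98 and 11.1 at 9. Together they held 0.472% of all counts at stage 7.1, 3.38% and 3.57% at 7.2, 2.73% at 7.3 and 0.405% at 8.2. Their share therefore passed through a low point at stage 8.2 and was 0.739% and 0.811% at stage 9.

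**Figure D1:**
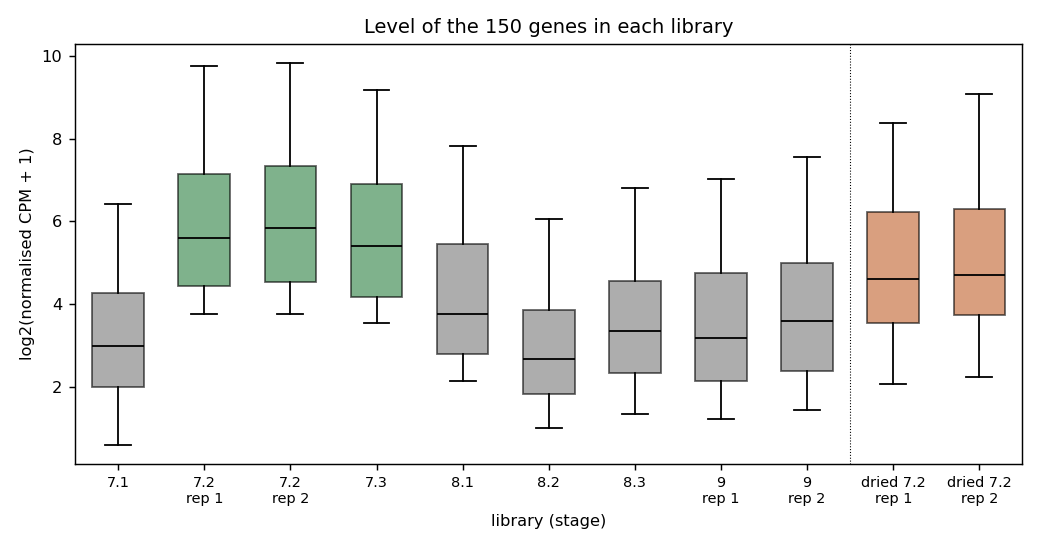
Levels of the 150 genes in each of the 11 libraries, as log2(normalised CPM + 1), with the box at the quartiles, the line at the median and whiskers from the 5th to the 95th percentile of genes. The fresh libraries of stages 7.2 and 7.3 (green) hold the highest medians by construction, the other fresh libraries (grey) reach their lowest median, 5.32 normalised CPM, at stage 8.2, and the dried libraries (orange) lie between, with medians of 23.2 and 25.1.

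The rise and the decline differed in size per step between stages. The stages were unevenly spaced in days after flowering, so these steps are not rates. The median log2(normalised CPM + 1) difference between stages 7.1 and 7.2 was 2.48 over the list and 0.74 over all eligible genes, with a range from 0.94 to 7.34. From stage 7.3 to stage 8.1 the median difference was -1.48, against 0.00 over the eligible genes, and from stage 8.1 to stage 8.2 it was a further -1.13. Stage 8.1 held the highest library outside the peak for 91 genes, stage 7.1 for 27, stage 8.3 for 20 and stage 9 for 12. Stage 8.2 held it for none.

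A low point at stage 8.2 was common among them. In CPM, 94 genes had their lowest value of the 5 libraries from stage 8.1 on at stage 8.2, against 16.5% of eligible genes, and in normalised CPM the number was 119, against 35.4%. From stage 8.2 to stage 8.3 the median log2 difference was 0.56 over the list and 0.07 over the eligible genes. With 1 library each at these stages, the spread between replicates is not known there, and the TMM factor of the library of stage 8.2 was the highest, 1.201. The 2 annotated photosystem transcripts checked, Glyma.11G114700 (photosystem II CP43) and Glyma.U016600 (photosystem I P700 apoprotein), also stood apart in this library. They had 8.99 and 12.2 normalised CPM, against 0.160 to 2.10 in the other fresh libraries and 10.3 to 15.1 in dried seeds. Both were lowest at stage 7.1 (0.561 and 0.160), where the study describes green seeds, so they are not read as markers of green tissue. Their part in the low point and in the drying response was not tested.

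At stage 7.3 more of the genes were below than above their level at stage 7.2. The library of stage 7.3 was below both libraries of stage 7.2 in CPM for 119 genes (38.6% of eligible genes were so) and above both for 15 (47.6% of eligible genes). In normalised CPM these numbers were 90 (27.2% of eligible genes) and 31 (61.6%), so the size of the difference depends on the scaling. It was at least 2-fold below both for 11 genes in CPM (1.89% of eligible genes) and 4 in normalised CPM (1.04%), and at least 2-fold above both for none in CPM. The steepest of the 11 was a gibberellin-regulated family gene, Glyma.05G034500, described below. The 15 that were higher at stage 7.3 in CPM included the glutamate-cysteine ligase genes and the SWEET1-like sugar transporters named in the list.

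After enforced drying of stage 7.2 seeds many of these transcripts were lower and none was higher at the thresholds used. Of the 150 genes, 60 were called lower in dried than in fresh seeds, at 2-fold or more and an adjusted p under 0.05 (edgeR), that is 40% of the list beside 17.9% of the 30132 genes tested and 5.32% of the eligible genes. No gene was called higher by edgeR, beside 15% of all genes tested and 16.5% of eligible genes. At an unadjusted p under 0.05 and 2-fold or more, edgeR still gave 0 higher genes, beside 16.4% of all genes tested, and DESeq2 called 1, Glyma.13G132000, beside 13.5% of all genes it tested. The median log2 fold change was -0.78 over the list, -0.05 over all genes tested and 0.27 over the eligible genes, and 127 genes were below 0 and 23 above. Among the 60 the log2 fold change ran from -5.00 to -1.02 with a median of -1.60.

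The fresh libraries of stage 7.2 that entered this test also chose the genes, so part of the lower level in dried seeds is built into the choice. When the list was rebuilt without fresh replicate 1 and the dried seeds were tested against that replicate alone, 39 of 150 genes were called lower, beside 8.79% of all genes tested and 2.5% of eligible genes. The same with fresh replicate 2 gave 47 of 150, beside 8.51% and 2.92%. In these fits the lone fresh library was assumed to vary as the dried ones did. The rebuilt lists shared 147 (without replicate 1) and 144 (without replicate 2) of 150 genes with the original list. The fresh replicates of stage 7.2 were also close, with a median absolute log2 difference of 0.18 in normalised CPM over the list. The held-out library was thus not independent of the choice. These 39 and 47 calls cannot show how much of the lower level is built in, and are not read as freed of the choice. With the list kept, leaving out fresh replicate 2 also left 39 lower genes, and leaving out dried replicate 1 gave 62 lower, beside 21.8% of all genes tested, and 5 higher, beside 19.2% (Glyma.U025900, Glyma.17G092800, Glyma.09G218300, Glyma.13G132000 and Glyma.08G081400).

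Many of these transcripts had an intermediate level in dried seeds, which is a description only. The rule chose genes with a wide gap between the peak and the other fresh libraries, and so made room for intermediate values. Only 1465 of the 9515 eligible genes scored above 0 and so had such a gap in CPM. No share over eligible genes is given for the positions relative to the peak and outside libraries. Those counts are therefore not read as a trait of the list. Dried replicate 1 lay between the other fresh stages and the peak libraries for 95 genes in normalised CPM and 98 in CPM, and dried replicate 2 for 79 and 74. In normalised CPM both dried libraries were below both fresh libraries of stage 7.2 for 111 genes, beside 28.6% of eligible genes, and in CPM for 139, beside 45.9%. Both dried libraries were at or below the highest library of the other fresh stages for 17 genes in normalised CPM and 32 in CPM. Both were at or above the lowest library of stages 7.2 and 7.3 for 24 genes in normalised CPM and 9 in CPM. The median absolute log2 difference between the dried replicates over the list was 0.36 in normalised CPM, against 0.18 for the fresh replicates at stage 7.2 and 0.25 at stage 9.

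Names were available for 69 of the 150 genes, mostly because the study listed them as differing between mature seeds and dried seeds of stage 7.2. Of the 69 named genes 3 were called lower after drying, with a median log2 fold change of -0.21. Of the 81 genes without a name 57 were called lower, with a median of -1.37. Because the study chose its list on these same libraries, the difference between named and unnamed genes is not independent of how the names were obtained, and it was not tested. Over all genes tested 17.9% were called lower, and over the eligible genes 5.32%. With so few named genes called, an absence of calls in a role below is not read as a trait of that role.

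**Figure D2:**
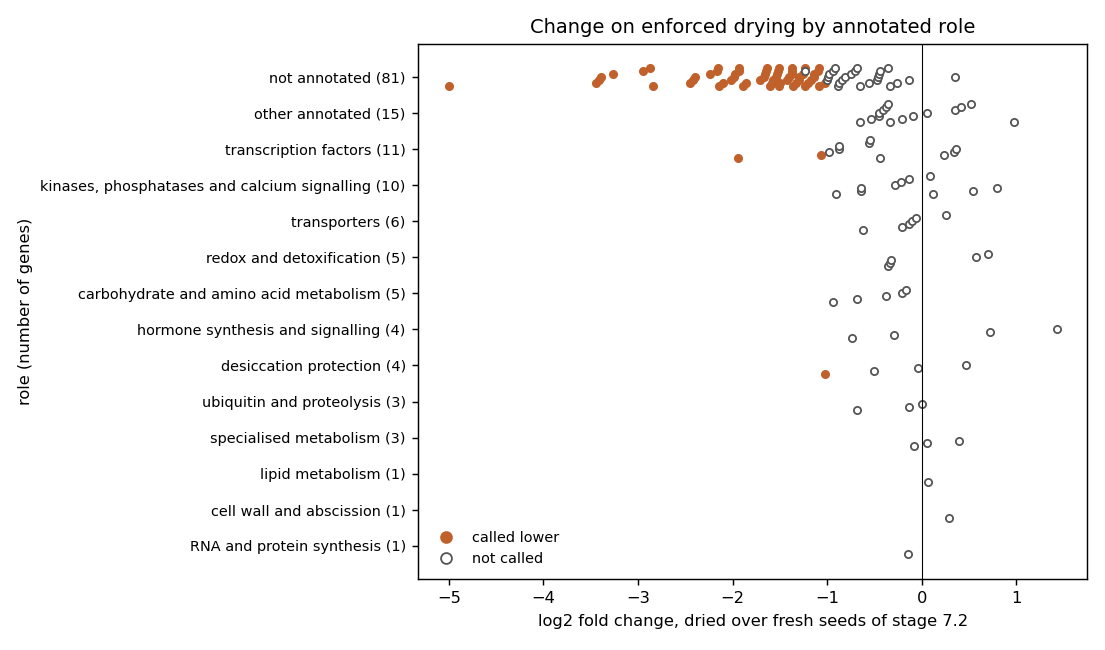
Log2 fold change of each of the 150 genes in dried over fresh seeds of stage 7.2 (2 libraries each, edgeR), by annotated role with the number of genes in brackets, filled where called lower and open where not called. Filled points lie among the genes without annotation (57 of 81), the transcription factors (2 of 11) and the desiccation protection genes (1 of 4), and no point is called higher.

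Transcription factors numbered 11. The most abundant was HSFA9 (Glyma.17G053700), a homologue of the seed-specific heat shock factor that in Arabidopsis and sunflower activates heat shock proteins of the maturing embryo. Its level was 52.4 normalised CPM at stage 7.1, 1576 and 1893 at 7.2, 1527 at 7.3, 507 at 8.1, 65.5 at 8.2, 236 at 8.3, and 177 and 268 at 9. The mean of stage 7.2 was 33.1-fold that of stage 7.1. Dried seeds held 1132 and 1110, below both fresh libraries of stage 7.2 and above every fresh library outside the peak, with a log2 fold change of -0.56 ± 0.28 (SE, adjusted p = 0.16) that did not pass the test.

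A second gene named HSFA9, Glyma.13G105700, had lower levels, and its Arabidopsis match is heat shock transcription factor A2. It had 14.3 normalised CPM at stage 7.1, 314 and 364 at 7.2, 272 at 7.3, 111 at 8.1, 37.9 at 8.2, 66.6 at 8.3, 63.5 and 79.6 at 9, and 170 and 157 in dried seeds. Both dried libraries were below both fresh ones, and the log2 fold change of -0.98 ± 0.23 (adjusted p = 0.0194) lay just short of the 2-fold limit. Heat shock transcription factor 34 (Glyma.17G174900), whose Arabidopsis match is heat shock factor 4, was the highest-ranking transcription factor, at rank 15. Its level was 8.01 at stage 7.1, 41.5 and 46.2 at 7.2, 30.4 at 7.3, 6.50 at 8.1, between 2.08 and 6.63 later, and 19.9 and 25.4 in dried seeds (log2 fold change -0.88 ± 0.21, adjusted p = 0.0197, under 2-fold).

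Heat shock factors did not share one profile. The study's gene lists and text name 12, of which these 3 were in the list. Of the other 9, the highest stage mean was at stage 9 for 6, at 7.1 for 2 and at 7.2 for 1. That single gene, Glyma.05G095900, bears the same name as Glyma.17G174900 and had 7.28 and 8.45 normalised CPM at stage 7.2 and 7.38 at stage 7.3, under the minimum of the list. HSFB2a (Glyma.20G156800) went the other way, from 82.4 and 91.2 at stage 7.2 to 503 and 531 at stage 9, and rose on drying to 329 and 853 (log2 fold change 2.83, adjusted p = 0.00787). HSFA3 (Glyma.03G191100) also rose on drying (log2 fold change 1.67, adjusted p = 0.00563) and Glyma.04G039600 fell, at under 1 normalised CPM in all 4 libraries.

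**Figure D3:**
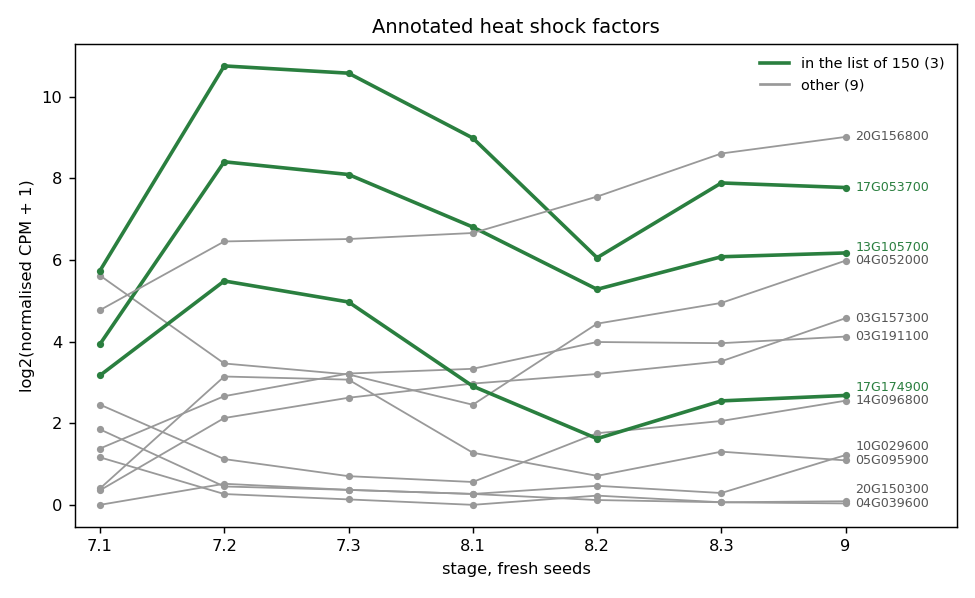
Stage means of log2(normalised CPM + 1) in fresh seeds for the 12 annotated heat shock factors, with the 3 genes of the list in green and the other 9 in grey. The green lines peak at stage 7.2, while 6 of the grey lines are highest at stage 9.

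Among the 11 named transcription factors of the list, MYB112 and an AINTEGUMENTA-like gene were called lower on drying. MYB112 (Glyma.01G190100), matched to Arabidopsis MYB73, had 52.6 normalised CPM at stage 7.1, 233 and 288 at 7.2, 143 at 7.3, 42.8 at 8.1, 5.22 at 8.2, between 20.3 and 22.4 at stages 8.3 and 9, and 68.0 and 60.7 in dried seeds. It fell on drying (log2 fold change -1.94 ± 0.24, adjusted p = 0.00373), to a level between stages 7.3 and 8.1. The AP2-like gene Glyma.01G022500, matched to AINTEGUMENTA-like 6, a growth regulator of young organs in Arabidopsis, had 68.1 and 65.0 at stage 7.2, 65.6 at stage 7.3, between 6.53 and 19.0 in the other fresh libraries, and 35.9 and 24.5 in dried seeds (log2 fold change -1.07 ± 0.25, adjusted p = 0.0192). It thus held a flat top over both peak stages, and the dried and fresh seeds did not overlap.

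Of the other 6 transcription factors, 5 were zinc finger proteins and 1 was a MYB. Glyma.02G058400 and Glyma.02G058500 are next to each other in the order of identifiers, share their Arabidopsis match, and neither was called after drying. Glyma.02G058500 had 20.7 and 26.2 normalised CPM at stage 7.2, 16.7 at stage 7.3, between 2.16 and 7.42 in the other fresh libraries and 20.1 and 32.2 in dried seeds (log2 fold change 0.24 ± 0.27, adjusted p = 0.513). Glyma.02G058400 had 47.4 and 59.4 at stage 7.2 and 53.8 and 76.7 in dried seeds. Both overlapped between fresh and dried seeds in normalised CPM, while in CPM both dried libraries were below both fresh ones of stage 7.2. The C2H2 gene Glyma.10G051500 had 31.8 and 30.7 at stage 7.2, 30.5 at stage 7.3 and 15.7 and 16.7 in dried seeds (log2 fold change -0.88 ± 0.18, adjusted p = 0.0131, under 2-fold). MYBJ2 (Glyma.06G193600), matched to Arabidopsis MYB94, was near the minimum of the list, with 11.9 and 11.3 at stage 7.2.

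Desiccation protection was represented by 4 genes. A pair of PM3 genes, which encode AWPM-19-like membrane proteins first described as abscisic acid-induced plasma membrane proteins in wheat, included the most abundant gene of all 150. That gene, Glyma.10G205900, had 547 normalised CPM at stage 7.1, 3625 and 4543 at 7.2, 3739 at 7.3, 1692 at 8.1, 462 at 8.2, 941 at 8.3, 1005 and 1258 at 9, and 2882 and 4714 in dried seeds. Its dried replicates fell on either side of both fresh ones of stage 7.2 in normalised CPM, and both dried ones were below the fresh ones in CPM. The log2 fold change was -0.04 ± 0.39 (adjusted p = 0.947). Glyma.20G184600 had a sharper peak, with 57.6 at stage 7.1, 1252 and 1515 at 7.2, 948 at 7.3, 224 at 8.1, 27.1 at 8.2, 88.3 at 8.3, 84.9 and 135 at 9, and 770 and 1094 in dried seeds (log2 fold change -0.50 ± 0.31, adjusted p = 0.234). It stood at rank 9, the second named gene by score.

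The other 2 were a LEA-like gene and a DnaJ-like chaperone. The LEA-like gene Glyma.01G174100 had 68.2 and 70.0 normalised CPM at stage 7.2, 72.3 at stage 7.3, between 8.81 and 30.9 in the other fresh libraries and 37.2 and 27.7 in dried seeds. It fell on drying, just past the limit (log2 fold change -1.02 ± 0.23, adjusted p = 0.0166). The DnaJ-like gene Glyma.03G216900 rested on 2 counts at stage 7.1 and had 14.4 and 17.3 normalised CPM at 7.2, 12.9 at 7.3 and 17.1 and 24.5 in dried seeds, with a log2 fold change of 0.47 ± 0.24 (adjusted p = 0.162).

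The list held 2 genes named glutamate-cysteine ligase, the enzyme that makes the first intermediate of the antioxidant glutathione, and both continued upward to stage 7.3. Glyma.01G219900 had 70.3 normalised CPM at stage 7.1, 2177 and 2314 at 7.2, 2950 at 7.3, 1106 at 8.1, 434 at 8.2, 977 at 8.3, 1119 and 1182 at 9, and 3373 and 3593 in dried seeds. Glyma.11G023600 had the same shape at a lower count, with 1.84 at stage 7.1, 72.4 and 75.1 at 7.2, 102 at 7.3, 36.9 at 8.1, 12.8 at 8.2, 31.6 at 8.3, 32.4 and 39.5 at 9, and 110 and 97.6 in dried seeds. In both genes each dried library was above each fresh library of stage 7.2 in normalised CPM, unlike most of the list. In CPM dried replicate 2 was below both fresh libraries in each gene. It had 2426 against 2497 and 2438 for Glyma.01G219900. For Glyma.11G023600 it had 65.9 against 83.0 and 79.1. The log2 fold changes of 0.70 ± 0.31 (adjusted p = 0.112) and 0.57 ± 0.20 (adjusted p = 0.0663) did not pass the test. The other redox genes were a nucleoredoxin, an aldose reductase-like gene and a rubredoxin family gene, with log2 fold changes from -0.36 to -0.33 on drying.

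**Figure D4:**
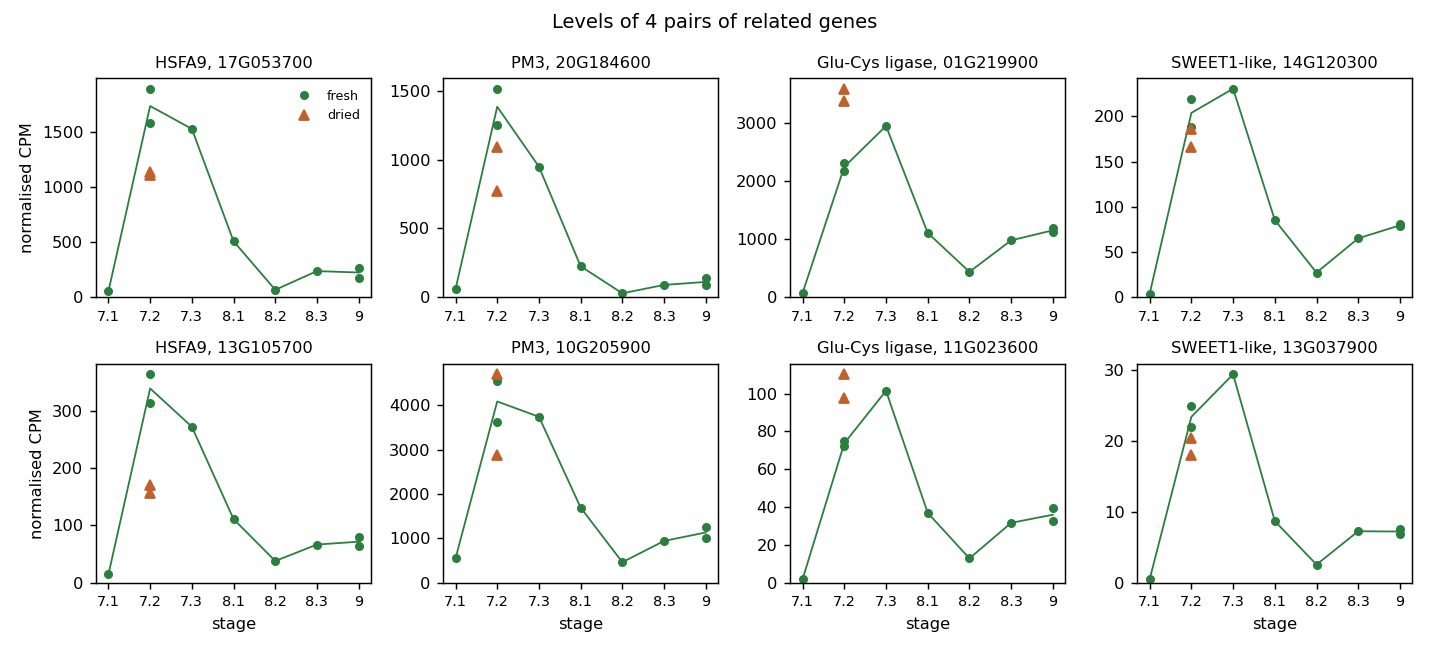
Normalised CPM, on linear axes from 0, of 4 pairs of related genes by stage in fresh seeds (green points are libraries, lines join stage means) and in dried seeds of stage 7.2 (orange triangles). The dried points lie below the fresh ones of stage 7.2 for HSFA9 and above them for the glutamate-cysteine ligase genes. None of these genes was called, and in CPM dried replicate 2 of the ligase genes lies below the fresh ones. All 8 genes are lowest after stage 7.3 at stage 8.2.

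Transporters numbered 6, none of them called after drying, beside 3 called lower of the 69 named genes. The highest-ranking named gene of the whole list, at rank 5, was Glyma.05G229700, of the proton-dependent oligopeptide transport family, whose plant members carry nitrate, peptides or hormones. It had 2.64 normalised CPM at stage 7.1, 308 and 380 at 7.2, 240 at 7.3, 19.1 at 8.1, 4.16 at 8.2, 47.4 at 8.3, 25.2 and 45.5 at 9, and 157 and 472 in dried seeds. Its difference from stage 7.3 to stage 8.1, -3.58 on the log2(normalised CPM + 1) scale, was the steepest in the list. Its dried replicates lay on either side of the fresh ones of stage 7.2 in normalised CPM, and both were below them in CPM (log2 fold change -0.06 ± 0.50, adjusted p = 0.929).

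The SWEET1-like genes, members of a family of sugar channels that in other plants also carry sugars into seeds, were 56.6-fold and 48.6-fold higher at stage 7.2 than at stage 7.1. Glyma.14G120300 had 3.60 normalised CPM at stage 7.1, 189 and 219 at 7.2, 231 at 7.3, 85.2 at 8.1, 27.1 at 8.2, 65.0 at 8.3, 80.6 and 78.2 at 9, and 166 and 186 in dried seeds. Glyma.13G037900 had 0.480, 21.9 and 24.9, and 29.4 at stages 7.1, 7.2 and 7.3, and 18.0 and 20.3 in dried seeds. For both, stage 7.3 was above both libraries of stage 7.2. A pair of MATE efflux genes (Glyma.13G339800 and Glyma.15G034600), of a family that exports organic ions and secondary metabolites, and an amino acid permease 6 homologue (Glyma.17G192000) completed the group, the last with 0.641 at stage 7.1, 41.8 and 51.6 at stage 7.2 and 49.4 and 57.2 in dried seeds.

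The hormone group held a pair of gibberellin-regulated family genes that diverged. Glyma.17G092800 was the second most abundant gene of the list, with 434 normalised CPM at stage 7.1, 2906 and 3610 at 7.2, 2182 at 7.3, 829 at 8.1, 379 at 8.2, 998 at 8.3, 1157 and 1192 at 9, and 2823 and 7418 in dried seeds. Its partner Glyma.05G034500 had 27.1 at stage 7.1 and 308 and 353 at 7.2, but 61.5 at 7.3, then 23.2 at 8.1, 5.81 at 8.2, 16.8 at 8.3, 16.6 and 25.5 at 9, and 89.6 and 289 in dried seeds. The step from stage 7.2 to stage 7.3 was -2.40 for the latter and -0.57 for the former on the log2(normalised CPM + 1) scale. The dried replicates of both differed by more than 2-fold, replicate 2 being the higher, and neither gene was called (adjusted p = 0.30 and 0.291).

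Several estimates above 0 after drying went with a high value in dried replicate 2 alone. BRI1-KD interacting protein (Glyma.13G132000) had 10.5 normalised CPM in both fresh libraries of stage 7.2, 10.6 at stage 7.3, and 9.90 and 43.2 in dried seeds (log2 fold change 1.43 ± 0.61, adjusted p = 0.109). Protein phosphatase 2C 28 (Glyma.08G081400), of a family whose clade A members block abscisic acid signalling in Arabidopsis, had 865 and 905 at stage 7.2, 925 at stage 7.3, between 123 and 477 in the other fresh libraries, and 868 and 2054 in dried seeds (log2 fold change 0.79 ± 0.44, adjusted p = 0.193). A second phosphatase of this type, Glyma.U025900, had 192 and 206 at stage 7.2, and 167 and 385 in dried seeds. Glyma.09G218300, of unknown function, had 16.6 and 20.7 at stage 7.2, and 18.2 and 51.5 in dried seeds (log2 fold change 0.98 ± 0.46, adjusted p = 0.138). In each of these 4 genes dried replicate 1 did not exceed the higher fresh library of stage 7.2.

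Signalling genes, 10 in all with the phosphatases, gave no call after drying, beside 3 called lower of the 69 named genes. Their median log2 fold change was -0.18. An LRR receptor-like kinase (Glyma.06G319700) had the largest ratio of stage 7.2 to stage 7.1 among them, 44.3-fold, with 7.77 normalised CPM at stage 7.1, 328 and 360 at 7.2, 337 at 7.3, 141 at 8.1, 26.1 at 8.2, 36.7 at 8.3, 44.9 in both libraries of stage 9, and 211 and 208 in dried seeds (log2 fold change -0.64 ± 0.22, adjusted p = 0.0602). A GCR2-like gene (Glyma.11G241500), homologues of the thylakoid kinase STN7 (Glyma.01G087900) and of diacylglycerol kinase 1 (Glyma.05G022500), and a pair of inositol 5-phosphatases (Glyma.16G161500 and Glyma.02G078700) belonged here too. STN7, which in Arabidopsis adjusts light harvesting, had 31.0 and 33.7 at stage 7.2, 38.9 at stage 7.3, between 4.76 and 13.6 in the other fresh libraries, and 13.9 and 18.8 in dried seeds (log2 fold change -0.91 ± 0.22, adjusted p = 0.0207, under 2-fold).

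Metabolic genes were few. A gene named alpha-amylase (Glyma.01G115000), whose Arabidopsis match is a protein with a carbohydrate-binding-like fold, had 237 and 255 normalised CPM at stage 7.2, 255 at stage 7.3, between 37.0 and 112 in the other fresh libraries, and 129 and 115 in dried seeds, with a log2 fold change of -0.94 ± 0.22 (adjusted p = 0.0193) short of the 2-fold limit. A Rubisco small subunit gene (Glyma.13G097100), a part of the enzyme that fixes carbon dioxide, had 101 and 113 at stage 7.2, 74.0 at 7.3, 25.1 at 7.1, between 4.03 and 18.4 from stage 8.1 on, and 54.5 and 121 in dried seeds. Genes for branched-chain amino acid aminotransferase (Glyma.06G050100), histidinol dehydrogenase (Glyma.08G081500) and an ACT domain protein (Glyma.11G046200) made up the group of 5. None of the 5 was called after drying, beside 3 called lower of the 69 named genes. A dihydroflavonol reductase-like gene (Glyma.19G254600), an alpha-dioxygenase (Glyma.13G070900) and the glycosyltransferases Glyma.02G273400, Glyma.10G062200 and Glyma.13G029500 were not called either, with log2 fold changes from -0.29 to 0.39.

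The remaining named genes were 1 cell wall gene, 1 histone, 3 genes of protein turnover and 15 of other or unknown function. None of them was called after drying, beside 3 called lower of the 69 named genes. In this remainder a retinol dehydrogenase-like gene (Glyma.13G131400) had each dried library, 56.8 and 54.9 normalised CPM, above each fresh one of these stages. The fresh libraries had 36.8 and 45.2 at stage 7.2 and 44.5 at stage 7.3. In CPM dried replicate 2, at 37.1, was below both fresh libraries of stage 7.2, at 42.2 and 47.6. The estimate of 0.52 ± 0.20 did not pass (adjusted p = 0.086). The ubiquitin ligase RGLG2 (Glyma.19G078600) had 14.5 and 16.1 at stage 7.2 and 12.9 and 13.6 in dried seeds.

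The top of the ranking was held by genes without a name here. Of the 20 highest scores 16 were unnamed, and of the other 130 genes 65 were. Only 3243 of all 56044 genes stood in the gene lists that gave the names. Lacking a name was thus common over all genes and is not read as a trait of the top. Glyma.11G209900, at rank 1, had 11.4 normalised CPM at stage 7.1, 185 and 221 at 7.2, 102 at 7.3, 14.4 at 8.1, 4.67 at 8.2, 12.7 at 8.3, 9.23 and 14.4 at 9, and 40.9 and 47.0 in dried seeds. It fell on drying (log2 fold change -2.14 ± 0.23, adjusted p = 0.00283), to well under its level at stage 7.3 but above every other fresh library outside the peak. Glyma.20G017100, at rank 2, had 84.3 and 102 at stage 7.2 and 114 at stage 7.3, between 4.84 and 14.2 in the other fresh libraries, and 15.8 and 8.60 in dried seeds, close to the level of those libraries (log2 fold change -2.87 ± 0.35, adjusted p = 0.00372). Glyma.08G244500, at rank 3, had 142 and 182 at stage 7.2, 76.1 at stage 7.3, between 2.12 and 11.2 elsewhere in fresh seeds and 32.0 and 65.1 in dried seeds.

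The largest falls on drying were also among unnamed genes. Glyma.18G120400 had 6.97 normalised CPM at stage 7.1, 32.4 and 48.2 at 7.2, 19.0 at 7.3, 2.03 at 8.1, between 0.255 and 0.934 later, and 0.660 and 1.51 in dried seeds (log2 fold change -5.00 ± 0.41, adjusted p = 0.00218). Glyma.11G242200 had 126 and 139 at stage 7.2 and 10.4 and 12.8 in dried seeds (log2 fold change -3.44 ± 0.23, adjusted p = 0.00202). In dried seeds both genes were below the level they had on the plant at stage 8.1. The largest step between stages 7.1 and 7.2 on the log2(normalised CPM + 1) scale was that of Glyma.06G307900, from 0.280 (7 counts) to 183 and 234, and its dried seeds had 76.0 and 77.3 (log2 fold change -1.37, adjusted p = 0.00774). Abundant unnamed genes were Glyma.15G151000, with 2451 and 2785 at stage 7.2 and 1344 and 1361 in dried seeds, and Glyma.15G191100, with a log2 fold change of -1.10 ± 0.29 (adjusted p = 0.027).

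A few members lay side by side. In the order of identifiers 5 pairs were direct neighbours and 1 pair, Glyma.20G053700 and Glyma.20G054100, was 4 steps apart. The latter pair fell alike on drying, from 113 and 88.2 to 3.22 and 14.2 normalised CPM for Glyma.20G053700 (log2 fold change -3.41 ± 0.64, adjusted p = 0.0106), and from 87.9 and 71.6 to 2.56 and 11.4 for Glyma.20G054100 (log2 fold change -3.39 ± 0.63, adjusted p = 0.0101). Glyma.08G131300 and Glyma.08G131400, at ranks 8 and 4, were neighbours that both fell (log2 fold change -1.67 ± 0.28 and -1.93 ± 0.39). HSFA9 (Glyma.17G053700) adjoined a calmodulin-binding protein gene (Glyma.17G053600) with 15.2 and 20.1 at stage 7.2, 16.3 at stage 7.3, between 1.10 and 7.32 in the other fresh libraries, and 14.9 and 15.8 in dried seeds. Soybean carries many duplicated genes, 14 members shared their Arabidopsis match with another in 7 pairs, and how reads were divided between close copies could affect their counts.

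The comparison of mature seeds of stage 9 with seeds dried at stage 7.2 is given as a description, since the rule required low levels at stage 9 and so fixed its direction. Of the 150 genes, 87 were called lower at stage 9 (edgeR), beside 5.02% of the 25797 genes tested and 5.2% of eligible genes, and 0 were called higher, beside 2.76% and 1.78%. At an unadjusted p under 0.05 and 2-fold or more the numbers were 106 and 0, beside 10.8% and 5.21% of all genes tested, and DESeq2 called 102 and 0, beside 6.12% and 3.12% of the genes it tested. Most names also came from this same contrast in the study, and nothing is read from these counts. The smallest adjusted p was 0.0255, and without either library of stage 9 no gene was called. Among the called genes the log2 fold changes ran from -4.29 (Glyma.20G054100) to -1.07. The dried libraries are shared between both comparisons, on opposite sides. In these, 26 genes were lower in each, 34 only in dried against fresh seeds and 61 only at stage 9 against dried seeds. The other 29 were called in neither. No share over all genes is given for this split, and nothing is read from it.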

How the data were processed

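The authors sequenced single-end reads from whole seeds, removed adaptors and low complexity reads, aligned the rest with Bowtie2 to the Williams 82 genome (the counting program is not given in the sources used here) and deposited whole-number read counts per gene, not normalised. A line without a gene name held 0 counts (0%) and was left out. CPM was computed on column sums, and TMM factors over the 11 libraries gave normalised CPM. Fits used R 4.3.3 with edgeR 4.0.16 (filterByExpr, TMM, two-sided quasi-likelihood F test, Benjamini-Hochberg adjustment over all genes tested) on the 4 libraries of each comparison, with calls at 2-fold or more and an adjusted p under 0.05. The SE after each ± is the absolute log2 fold change divided by the square root of the F statistic, and was not estimated separately. All 150 genes passed the filter in both comparisons. DESeq2 1.42.0, other filters and scalings, a replicate block and each library left out were alternatives, and the script was tested on simulated data. Python 3.11.15 and pandas 2.3.3 handled the tables. The p-values measure the spread between 2 libraries a group, called biological replicates in the study.

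The genes and lists were chosen with earlier results of these data known. Genes are named by rule (the 20 highest scores, transcription factors the study lists, the 3 largest changes in each test, the 5 most abundant, families, the limit of the list and up to 3 examples per role). Second copies, and Glyma.17G192000, Glyma.06G307900, Glyma.U025900, Glyma.09G218300, Glyma.05G022500 and Glyma.15G191100 were added after their values were seen. Names come from the gene lists published with the study, given here in part. The columns of the authors' own comparisons in those lists were not used. Sequences, promoters and coordinates were not analysed here.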

Additional observations from a re-analysis of the deposited data

How the results depend on the processing

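The list was sensitive to its own rule. It shared 135 genes with a list built on TMM-scaled totals, 145 and 127 with pseudocounts of 0.1 and 5, and 121 with a CPM minimum of 5, but 64 with a minimum of 50, 69 with a rule without stage 7.1, 21 with a rule without stages 8.1 to 9, and 144 to 148 when a replicate was left out. The number of genes highest at stage 7.3 was 15 in CPM, 31 on TMM-scaled totals over 11 libraries (added after the data were seen), 16 with TMM over the 9 fresh libraries, and 21 to 25 with a replicate of stage 7.2 left out. On drying, 0 genes were called higher and 60 lower, beside 15% and 17.9% of all genes tested. These shares over all genes also moved when a library was left out. The higher count was 1 with DESeq2, 1 with no filter on low counts (Glyma.13G132000 in both) and 0 to 5 with a library left out, and the lower count was 39 to 69 with a library left out and 39 with genes chosen without fresh replicate 1. At stage 9 against dried seeds the 87 lower genes, beside 5.02% of all genes tested, became 0 at an adjusted p under 0.01, beside 0%. Without either library of stage 9 the calls were likewise lost in the list and over all genes tested. Without either dried library they became more in both. The cause was not tested. The dried libraries were both at or below the highest outside library for 32 genes in CPM and 17 on TMM-scaled totals. That scaling was added after the data were seen, and no share over eligible genes is given for these counts. A replicate block gave 61 lower and 0 higher on drying (18% and 15.4% of all genes tested), and 106 lower and 0 higher at stage 9 (8.02% and 3.63%). The labels do not say that a replicate number stands for a common batch. Deviations of same-numbered libraries correlated at 0.121 (fresh and dried), 0.165 (dried and stage 9) and 0.197 (fresh and stage 9) over 13159 genes, with 2 numbers only. The 5 stages with 1 library have no replicate error.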
